A study of Mus musculus with 15 samples.

Results

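The ADAMTS proteases and the procollagen C-proteinase Bmp1 were followed through bleomycin lung injury in mice. The 10 genes were chosen by symbol: Adamts1, Adamts2, Adamts4, Adamts5, Adamts9, Adamts12, Adamts14, Adamts15, Adamts16 and Bmp1. All 10 were among the 33340 genes of the count table. RNA was taken from whole lung of young adult male C57BL/6 mice, and those of the later days had received 1 intratracheal dose of bleomycin at 5 U/kg. Bleomycin breaks DNA and is used to model lung fibrosis. There were 4 libraries at day 0 (control, no bleomycin), 4 at day 7, 4 at day 14 and 3 at day 21. The control library of replicate 4 was titled a control but carried a bleomycin treatment label, and it was kept at day 0 by its title. Library numbers are those of the titles, whereas the design text names 3 replicates at each day. The study calls its lung libraries biological replicates without tying a library to an animal. The p-values set differences between days against the spread between these libraries.

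Fibrillar collagens are secreted as procollagens with a propeptide at each end. The N-propeptide is removed by ADAMTS2, ADAMTS3 and ADAMTS14, and the C-propeptide by BMP1 and the related tolloid proteases, after which the molecules can assemble into fibrils. ADAMTS1, 4, 5, 9 and 15 are proteoglycanases that cut aggrecan and versican, the large proteoglycans that hold water in the matrix. ADAMTS12 cuts cartilage oligomeric matrix protein among other substrates, and ADAMTS16 is a less studied member of the family.

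Total counts ran from 15652008 to 18020661 per library. The share of counts from mitochondrial genes differed within days: it was 2.28% and 2.31% in day 0 replicates 1 and 2, 4.22% and 4.04% in replicates 3 and 4, 2.03% to 2.15% at day 7, 2.102% in day 14 replicate 1 against 3.74% to 4.14% in the other day 14 libraries, and 2.66% to 4.01% at day 21. The summed level of 8 lung epithelial markers was 53086 to 68568 CPM (counts scaled to a common library total after TMM correction) at day 0 and 10076 to 14712 CPM at day 21. That of 5 macrophage markers was 321 to 372 CPM at day 0 and 614 to 1426 CPM at day 14, that of 7 smooth muscle markers was 279 to 386 CPM at day 0 and 444 to 1118 CPM at day 14, and that of 8 fibroblast markers was 1449 to 1628 CPM at day 0 and 857 to 1297 CPM at day 14. At day 14, 0 of the 8 epithelial markers were called higher and 5 lower, 5 of the 5 macrophage markers were called higher, 2 of the 7 smooth muscle markers (Acta2 and Actg2) were called higher and 0 lower, and of the 8 fibroblast markers 1 (Lum) was called higher and 4 lower. Here a called gene had an adjusted p below 0.05 and more than a 1.5-fold difference in edgeR's quasi-likelihood test. The fibroblast sum at day 21, 1148 to 1475 CPM, overlapped that at day 0. Of the other lists, the sum of 8 endothelial markers was 2791 to 3318 CPM at day 0 and 1558 to 2709 CPM at day 14 (0 called higher, 2 lower), that of 6 mesothelial markers 318 to 483 CPM and 607 to 1189 CPM (1 higher, 0 lower), and that of 6 adipose markers 19.8 to 68.8 CPM and 1.30 to 3.70 CPM (5 tested, 5 lower), all 3 without overlap. The sums of 10 cartilage markers (72.3 to 81.9 CPM and 61.98 to 142.9 CPM) and 7 cardiac muscle markers (22.3 to 255 CPM and 23.4 to 40.5 CPM) overlapped. Matn4 made up most of the cartilage sum, with a mean of 75.4 CPM at day 0. At day 14, 2 of the 10 cartilage markers were tested and 1 (Hapln1) was called higher. Of the 6 cardiac muscle markers tested, 1 (Myh6) was called lower. Every gene summed had counts, and 5 of the 6 macrophage markers listed were matched. Their part in the results was not tested, and in whole lung fewer cells of a type and less RNA per cell cannot be told apart.

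The promoter windows of 3 members called higher on 2 or more of the days are shown, since these genes moved in the same direction. Each runs from 250 bases before the start of the gene to 50 bases after it, in RefSeq on GRCm38.p6, printed 5′ to 3′ along the gene. Capitals mark each GC box, searched as GGGCGG on both strands. Of the 10 members, 5 had such a window. Adamts4 comes first by size of change among the tested members and had no window.
Adamts12 promoter, chr15:11064523-11064822, plus strand: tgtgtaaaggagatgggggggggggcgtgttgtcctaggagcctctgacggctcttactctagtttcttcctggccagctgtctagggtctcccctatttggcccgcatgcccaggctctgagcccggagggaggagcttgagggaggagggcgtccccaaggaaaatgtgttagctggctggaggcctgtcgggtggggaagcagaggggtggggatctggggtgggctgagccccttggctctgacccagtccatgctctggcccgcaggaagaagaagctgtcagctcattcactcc
Adamts2 promoter, chr11:50601835-50602134, plus strand: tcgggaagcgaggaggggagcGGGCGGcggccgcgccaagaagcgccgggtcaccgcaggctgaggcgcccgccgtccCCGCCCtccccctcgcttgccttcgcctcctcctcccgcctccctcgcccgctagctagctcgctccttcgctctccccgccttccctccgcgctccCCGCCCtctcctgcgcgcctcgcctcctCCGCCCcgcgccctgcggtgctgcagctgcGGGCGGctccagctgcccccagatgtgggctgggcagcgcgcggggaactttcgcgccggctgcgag
Adamts9 promoter, chr6:92943485-92943784, minus strand: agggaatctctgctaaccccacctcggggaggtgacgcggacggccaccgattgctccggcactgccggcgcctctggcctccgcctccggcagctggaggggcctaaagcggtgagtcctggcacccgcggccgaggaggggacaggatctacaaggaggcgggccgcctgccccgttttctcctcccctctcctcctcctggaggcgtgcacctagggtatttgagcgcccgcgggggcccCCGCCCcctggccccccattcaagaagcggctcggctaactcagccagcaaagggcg
The 3 windows were unlike in composition. GC content was 77.3% for Adamts2, 70.0% for Adamts9 and 62.0% for Adamts12, against a median of 52.7% over all 32851 windows. The Adamts2 window held 41 CpG pairs, the Adamts9 window 25 and the Adamts12 window 7, where the median window held 7. GC boxes numbered 5 in Adamts2, 1 in Adamts9 and 0 in Adamts12, and 35.7% of all windows held at least 1. On both strands none of the 3 windows held the AP-1 letters TGANTCA (in 7.81% of all windows), the SMAD letters CAGAC (49.6%) or the TATA letters TATAAA (13.6%). With none found, none overlaps a GC box, and a match or its lack is a description of the window alone.

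Among the 9 members with enough counts to be tested, Adamts4 and Adamts12 rose most, Adamts2 rose at every later day, Adamts9 rose at days 7 and 14, and Bmp1 rose from day 14. The tenth, Adamts16, had 0 counts at day 0 and is described by its counts. The test was edgeR's quasi-likelihood test. A called gene had an adjusted p (Benjamini-Hochberg) below 0.05 together with more than a 1.5-fold difference, and errors of log2 fold changes are standard errors. At day 7 against day 0, 4 members were called, all higher (Adamts2, Adamts4, Adamts9 and Adamts12), where 16.1% of 17457 genes were called and 8.78% were called higher. At day 14, 5 were called, all higher (the same 4 and Bmp1), where 23.1% of genes were called and 12.0% were called higher. At day 21, 6 were called, all higher (Adamts1, Adamts2, Adamts4, Adamts12, Adamts14 and Bmp1), where 22.5% of genes were called and 12.4% were called higher. No member was called lower, where 7.36%, 11.2% and 10.1% of genes were. The median log2 fold change of the 9 members was 0.69, 1.04 and 1.15 at days 7, 14 and 21, beside 0.01, 0.02 and 0.02 over all tested genes. Every later library lay above every day 0 library in 4, 5 and 6 members, where this held for 17.6%, 16.8% and 19.4% of all genes. At day 21 these members included Adamts15, which was not called, and did not include Adamts1, which was. The 3 comparisons share the day 0 libraries.

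**Figure D1:**
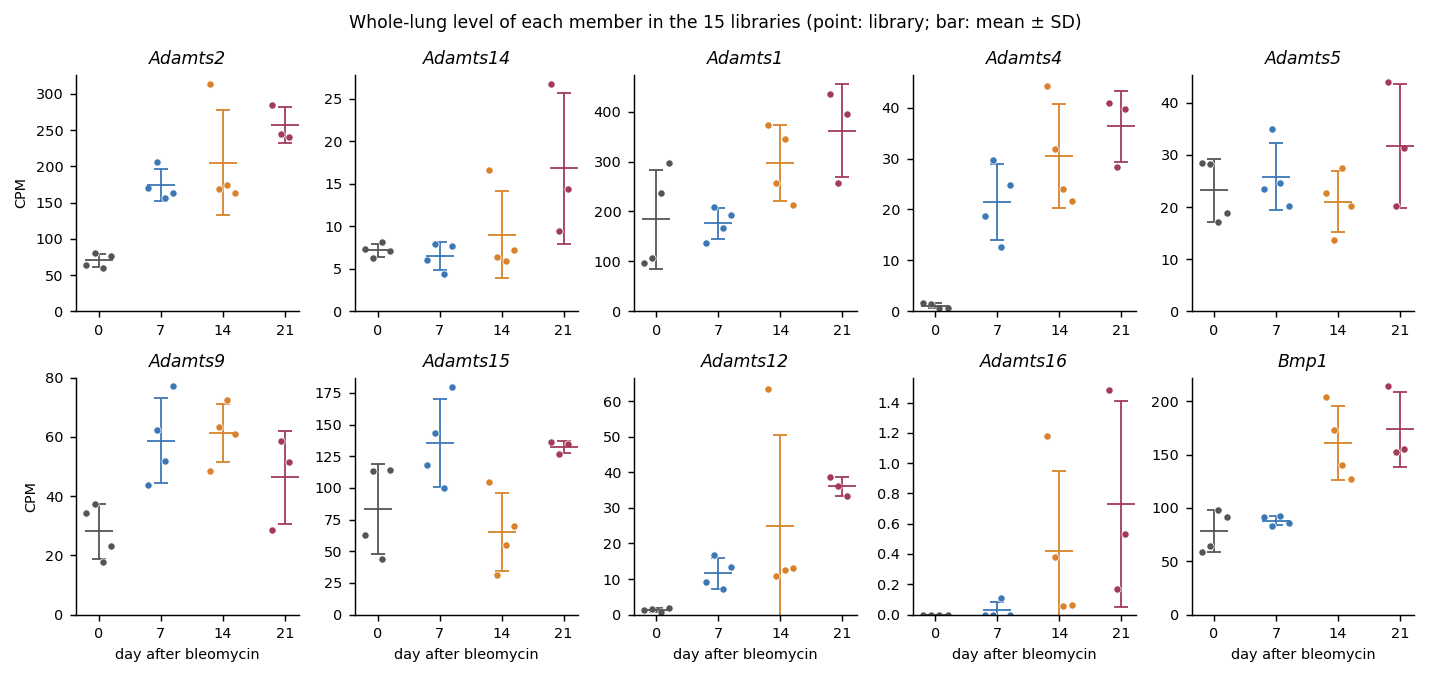
CPM of the 10 members (y axis, from 0) by day after bleomycin (x axis) in 15 libraries; points are libraries, the horizontal bar is the mean and the error bar 1 SD, cut at 0 where it would pass below. Adamts4 and Adamts12 were near 0 in all day 0 libraries and higher in every later library, and the day 14 level of Adamts12 was set apart by replicate 1 at 63.5 CPM.

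Adamts2, the main procollagen N-proteinase, is on chromosome 11. Its level was 64.0, 80.4, 60.5 and 76.2 CPM in the 4 day 0 libraries. It was 170.0, 205.7, 156.4 and 163.4 CPM at day 7, 314.1, 168.2, 175.0 and 163.2 CPM at day 14, and 285.1, 245.0 and 239.9 CPM at day 21. All 11 later libraries lay above all day 0 libraries, while days 7 and 14 overlapped. The log2 fold change against day 0 was 1.31 ± 0.19 at day 7 (adjusted p = 0.000279), 1.55 ± 0.19 at day 14 (adjusted p = 2.91e-05) and 1.87 ± 0.20 at day 21 (adjusted p = 1.31e-05). The day 14 library of replicate 1 lay above all day 21 libraries. Without it the log2 fold change at day 14 was 1.24.

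Adamts14, the second N-proteinase of the set, is on chromosome 10 and was measured at a low level. It was at 7.31, 6.23, 8.13 and 7.09 CPM at day 0 and between 4.45 and 7.93 CPM at day 7. At day 14 it was at 16.6, 6.38, 5.89 and 7.24 CPM, and at day 21 at 26.7, 9.46 and 14.4 CPM. The day 21 libraries all lay above day 0 and day 7, but spread over a wide range. The log2 fold change at day 21 was 1.23 ± 0.37 against day 0 (adjusted p = 0.0195) and 1.36 ± 0.37 against day 7 (adjusted p = 0.0264). The call against day 0 was lost without day 21 replicate 1, where the log2 fold change was 0.69, and without day 0 replicate 2, where it was 1.13. The call against day 7 was lost without day 21 replicate 1 (0.84), day 7 replicate 1 (1.32) or day 7 replicate 3 (1.22).

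Bmp1, the procollagen C-proteinase on chromosome 14, rose later than Adamts2. It was at 58.3, 64.7, 98.0 and 91.6 CPM at day 0, and 91.0, 83.3, 91.9 and 86.2 CPM at day 7. It was at 203.8, 172.9, 139.9 and 127.3 CPM at day 14 and 214.2, 152.2 and 154.9 CPM at day 21. Days 0 and 7 overlapped, and every library of days 14 and 21 lay above both. The log2 fold change against day 0 was 0.17 ± 0.18 at day 7 (adjusted p = 0.510), 1.04 ± 0.18 at day 14 (adjusted p = 0.000504) and 1.15 ± 0.19 at day 21 (adjusted p = 0.000442). The 2 day 0 libraries of low mitochondrial share were the 2 lower ones. With libraries under 2.5% alone, the log2 fold change at day 7 was 0.50. With libraries over 3.5% alone, it was 0.62 at day 14. The set over 3.5% held day 0 replicates 3 and 4 and day 14 replicates 2, 3 and 4. It thus also left out day 14 replicate 1, whose effect was not separated from that of the share. With mitochondrial share as a model term, the day 14 against day 7 change was 0.74 and was not called.

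Adamts4, an aggrecanase on chromosome 1, showed the largest fold change of the tested members at each day. It was at 1.55, 1.51, 0.698 and 0.669 CPM at day 0, which is 11 to 25 counts per library. It was at 18.6, 29.8, 12.6 and 24.8 CPM at day 7, 44.3, 31.9, 24.03 and 21.7 CPM at day 14, and 40.9, 28.3 and 39.8 CPM at day 21. Even the lowest later library was several times above the highest day 0 library. Against day 0 the log2 fold change was 4.27 ± 0.36 at day 7 (adjusted p = 4.42e-06), 4.78 ± 0.36 at day 14 (adjusted p = 6.85e-07) and 5.03 ± 0.37 at day 21 (adjusted p = 9.43e-07).

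Adamts9, a versicanase on chromosome 6, was at 34.4, 37.5, 17.8 and 23.04 CPM at day 0. It was at 43.7, 62.3, 51.8 and 77.1 CPM at day 7, 48.4, 63.2, 72.4 and 61.0 CPM at day 14, and 28.7, 58.6 and 51.6 CPM at day 21. All day 7 and day 14 libraries lay above day 0, while day 21 replicate 1 fell inside the day 0 range. Its log2 fold change was 1.06 ± 0.25 at day 7 (adjusted p = 0.00788), 1.12 ± 0.25 at day 14 (adjusted p = 0.00349) and 0.72 ± 0.27 at day 21 (adjusted p = 0.0569). The day 21 value was called in 4 of the settings run: without day 21 replicate 1 (0.93), without day 0 replicate 2 (0.85), with no filter on low counts (0.68) and with mitochondrial share in the model (0.77). With that share in the model, the day 7 value was 0.83 and was not called.

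Adamts1, a versican- and aggrecan-cutting protease on chromosome 16, split at day 0 along the mitochondrial share. It was at 96.2 and 106.7 CPM in replicates 1 and 2 and at 237.5 and 297.8 CPM in replicates 3 and 4. Day 7 gave 137.6, 208.3, 167.4 and 193.6 CPM, day 14 gave 373.7, 256.2, 345.1 and 212.5 CPM, and day 21 gave 434.7, 256.3 and 394.9 CPM. Day 7 lay between the day 0 pairs, and days 14 and 21 overlapped the upper pair. The log2 fold change was -0.06 ± 0.31 at day 7 (adjusted p = 0.903), 0.69 ± 0.31 at day 14 (adjusted p = 0.107) and 0.97 ± 0.34 at day 21 (adjusted p = 0.0393). With libraries under 2.5% mitochondrial share alone, the day 7 change was 0.78 and was called, and with libraries over 3.5% alone the day 14 change was 0.0057. The day 21 call was lost without day 0 replicate 1 (0.72), day 0 replicate 2 (0.74), day 21 replicate 1 (0.78) or day 21 replicate 3 (0.86) and with the 2 groups fitted alone (0.94), and without day 0 replicate 4 the day 14 change was 0.99 and was called.

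Adamts15, an aggrecanase on chromosome 9, was not called in any of the 6 comparisons between days. It was at 63.2, 113.0, 43.9 and 114.4 CPM at day 0 and 118.4, 143.4, 99.7 and 179.6 CPM at day 7. It was at 104.6, 30.9, 54.9 and 69.7 CPM at day 14 and 135.9, 127.0 and 134.7 CPM at day 21. Against day 0 the log2 fold change was 0.69 ± 0.33 at day 7 (adjusted p = 0.134), -0.36 ± 0.33 at day 14 (adjusted p = 0.426) and 0.66 ± 0.35 at day 21 (adjusted p = 0.172). From day 7 to day 14 the change was -1.06 ± 0.33 (adjusted p = 0.0646), and -1.38 and called without day 14 replicate 1. Adamts5, the other major aggrecanase and the neighbour of Adamts1 on chromosome 16, stayed between 13.6 and 43.9 CPM in all libraries, with log2 fold changes of 0.15, -0.14 and 0.45 at days 7, 14 and 21, none called.

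Adamts12, on chromosome 15, was at 1.29, 1.51, 0.635 and 1.73 CPM at day 0, or 10 to 31 counts per library. It was at 9.06, 16.9, 7.14 and 13.4 CPM at day 7, 63.5, 10.7, 12.6 and 13.2 CPM at day 14, and 38.8, 36.1 and 33.2 CPM at day 21. All later libraries lay above day 0, and day 14 replicate 1 lay above all other libraries of the series. Its log2 fold change was 3.15 ± 0.57 at day 7 (adjusted p = 0.00137), 4.26 ± 0.58 at day 14 (adjusted p = 6.74e-05) and 4.78 ± 0.60 at day 21 (adjusted p = 4.71e-05). With mitochondrial share in the model the day 7 value was 2.29, still called, and within libraries over 3.5% the day 14 value was 3.32, still called. Without day 14 replicate 1 the day 14 value was 3.20, still called, and day 21 against day 14 became 1.55 and called. Day 21 against day 7 was 1.63 ± 0.51 (adjusted p = 0.0454), a call lost without any of day 7 replicates 1, 3 and 4 or any day 21 library (1.46 to 1.71). With mitochondrial share in the model it was 2.70 and called.

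Adamts16, on chromosome 13, had 0 counts in all day 0 libraries and was left out of the test by the filter on low counts. It had 2 counts in all at day 7, all in replicate 3. It had 28 at day 14 (20, 6, 1 and 1 by library) and 36 at day 21 (24, 3 and 9). The day 0 level was set at 3 counts over the day 0 total, as the limit that a count of 0 allows. The pooled level was 9.11-fold that limit at day 14 and 15.5-fold at day 21. Without the highest library of each day, the ratios were 3.5 and 7.56. These ratios do not take in the spread of the later counts. Fitted with no filter on low counts, Adamts16 was called higher at days 14 and 21.

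**Figure D2:**
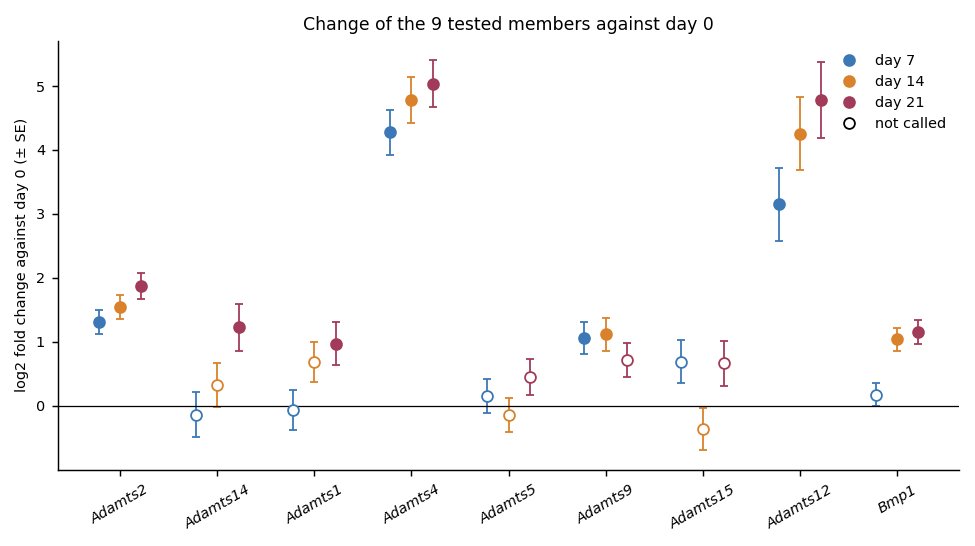
Log2 fold change against day 0 (y axis) of the 9 tested members (x axis) at days 7, 14 and 21 after bleomycin; error bars are 1 SE and filled points are called. Adamts4 lies between 4.27 and 5.03 and Adamts12 between 3.15 and 4.78, while Bmp1 moves from 0.17 at day 7 to 1.04 at day 14.

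Between later days, 1 member was called at day 14 against day 7 (Bmp1, 0.87 ± 0.18, adjusted p = 0.0147 in edgeR's quasi-likelihood test), where 6.00% of genes were called. At day 21 against day 7, 3 members were called (Adamts12, Adamts14 and Bmp1, the last at 0.98 ± 0.19, adjusted p = 0.00629), where 9.54% of genes were called. Without day 21 replicate 1, day 7 replicate 1 or day 7 replicate 3, 1 member was called. Day 21 against day 14 gave 0 called members and 0% of genes called in edgeR, with 1714 genes (9.82%) at an unadjusted p under 0.05.

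Per kb of exon, the scale on which genes can be compared, Adamts1 had the highest mean level of the members at every day, at 34.8 ± 18.7 CPM per kb at day 0 (SD, n = 4) and 68.3 ± 17.7 at day 21 (SD, n = 3). At day 0, Bmp1 (8.81), Adamts15 (8.07) and Adamts2 (7.53) followed and overlapped one another in turn. Adamts5 (2.15), Adamts9 (1.87) and Adamts14 (1.38) came next, also with neighbours overlapping, and Adamts4 (0.230) and Adamts12 (0.118) were at the low end. At day 7 the mean of Adamts2 (18.6) came next after Adamts1, but its libraries (16.8 to 22.03) overlapped those of Adamts15 (9.62 to 17.3). By day 21 the order was Adamts1, Adamts2 (27.5), Bmp1 (19.6), Adamts15 (12.8) and Adamts4 (7.56), none of which overlapped its neighbour. Adamts12, Adamts14, Adamts9 and Adamts5 then lay between 3.30 and 2.94 and overlapped.

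The summed level of all 10 members was 64.97 ± 20.4 CPM per kb at day 0 (SD, n = 4), 88.0 ± 12.4 at day 7 (SD, n = 4), 118.8 ± 30.3 at day 14 (SD, n = 4) and 148.4 ± 26.3 at day 21 (SD, n = 3). The proteoglycanases made up 71.3% of it at day 0 (66.4% to 77.9% by library) and 64.6% at day 7 (60.3% to 68.8%), which overlapped. The N-proteinases made up 14.7% at day 0 (10.504% to 18.6%) and 22.7% at day 7 (19.8% to 25.2%), which did not. Their share at day 14 was 19.7% (16.6% to 22.9%), which overlapped day 0. At day 21 it was 20.9% (18.8% to 23.2%), which did not. Adamts4 went from 0.417% to 4.97% of the sum between days 0 and 7, and was at 5.31% and 5.09% at days 14 and 21. Adamts1 was at 50.8% at day 0 and 37.8% at day 7, but the libraries ran from 37.5% to 63.0% and from 33.8% to 40.4% and overlapped, and its mean was 47.2% and 45.5% at days 14 and 21. Day 14 replicate 1 was the highest library of its day in 8 of the 10 members, and day 21 replicate 1 in 9 of 10.

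**Figure D3:**
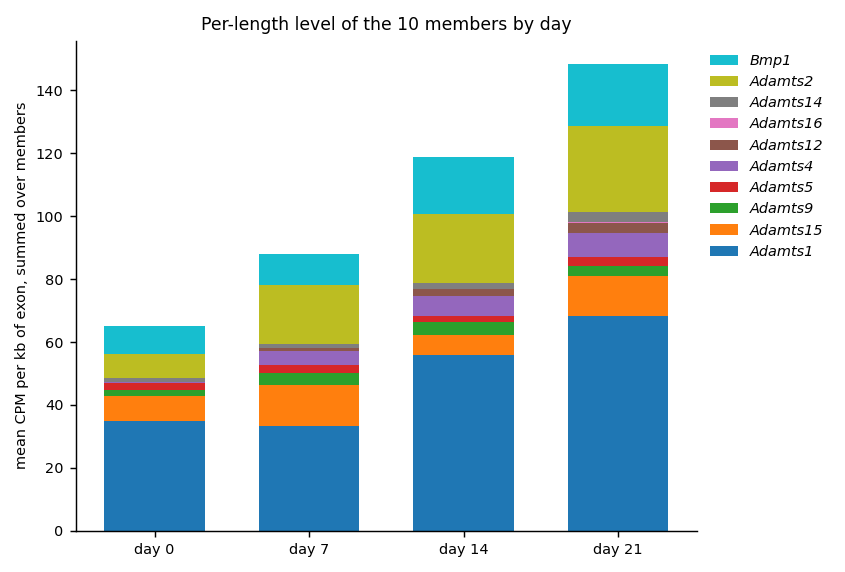
Mean level per kb of exon (y axis, CPM per kb) of the 10 members stacked by day (x axis). The sum goes from 64.97 at day 0 to 148.4 at day 21, and Adamts1 is the largest block at each day.

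The counts of Adamts2 and Bmp1 were also set against those of Col1a1 and Col3a1, a comparison chosen after the values were seen and given as a description with no test. There were 230.7 ± 40.0 counts of Adamts2 per 1000 counts of Col1a1 at day 0 (SD, n = 4), 123.5 ± 27.2 at day 7 (SD, n = 4), 112.8 ± 42.0 at day 14 (SD, n = 4) and 121.1 ± 62.9 at day 21 (SD, n = 3). All later libraries lay below all day 0 libraries. The mean log2 ratio differed from that of day 0 by -0.91, -1.10 and -1.03 at days 7, 14 and 21.

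Against Col3a1, the mean log2 ratio of Adamts2 differed from day 0 by -0.94 at day 7, -0.52 at day 14 and -0.40 at day 21, where 1 of the 3 libraries lay inside the day 0 range. Bmp1 per Col1a1 differed by -2.02, -1.55 and -1.74 on the same days, with no overlap with day 0. Bmp1 per Col3a1 differed by -2.04, -0.97 and -1.10, and 1 of the 4 day 14 libraries overlapped day 0.

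**Figure D4:**
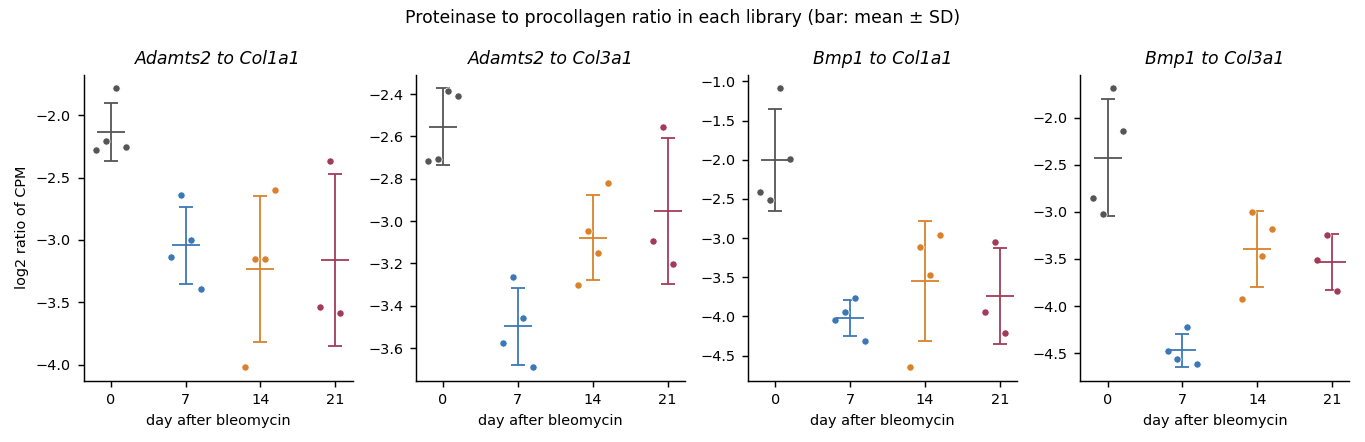
Log2 ratio of the CPM of Adamts2 and Bmp1 to that of Col1a1 and Col3a1 (y axis; panels differ in range) by day (x axis); points are libraries and bars the mean ± SD. All day 7 libraries lie below all day 0 libraries in the 4 panels.

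The related genes were 62 in 6 lists, of which 56 were tested. At day 7, 19 were called higher and 5 lower, at day 14, 26 higher and 7 lower, and at day 21, 33 higher and 6 lower. These are 42.86%, 58.93% and 69.64% of the 56, where 8.78%, 12.0% and 12.4% of all genes were called higher and 7.36%, 11.2% and 10.1% lower. The lists are of matrix genes chosen with earlier results of these data known. The median log2 fold change of the related genes was 0.52, 0.68 and 1.05 on these days. With mitochondrial share in the model, 12 were called at day 7.

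Among the other ADAMTS proteases, 9 of 10 were tested, and 2 were called higher and 2 lower at day 7, 1 higher and 2 lower at day 14, and 2 higher and 1 lower at day 21. Adamts7, which like Adamts12 cuts cartilage oligomeric matrix protein, rose by 0.74, 1.36 and 1.95 at days 7, 14 and 21 (adjusted p = 0.041, 0.000786 and 8.6e-05 in edgeR's test). Its day 7 call was lost without any of 7 of the 8 libraries, all but day 0 replicate 4, with values from 0.63 to 0.84 over the 8. The others called were named after their values were seen: Adamts19 (2.24), Adamts10 (-1.10) and Adamts13 (-1.38) at day 7, Adamts20 (-1.44) at day 14, Adamts8 at days 14 (-0.73) and 21 (-0.75), and Adamts6 (1.54) at day 21. Of these, the call was lost on leaving out 1 library for 3 of 8 libraries in Adamts19 (range 1.90 to 3.66, the highest without day 0 replicate 2), 1 of 8 in Adamts10 (day 0 replicate 3, -0.91), 6 of 8 in Adamts13, 6 of 8 in Adamts20, and 2 of 8 at day 14 and 4 of 7 at day 21 in Adamts8. With mitochondrial share in the model, none of the 4 proteases called at day 7 was called (Adamts7 0.52, Adamts19 1.64, Adamts10 -0.44 and Adamts13 -0.88). Within libraries under 2.5%, Adamts19 (1.55), Adamts10 (-0.56) and Adamts13 (-1.20) were not called at day 7. Within those over 3.5%, Adamts8 (-0.45) and Adamts20 (-1.65) were not called at day 14. Each of these sets held fewer libraries than the main fit. Calls were also lost with no filter on low counts for Adamts7 (0.73) and Adamts13 (-1.39) at day 7, with limma voom for Adamts7 at day 7 (0.74), and with a replicate block for Adamts8 at day 21 (-0.72). Adamts19 at day 21 (1.80) was not called in the main fit. It was called with limma voom (2.30), a replicate block (1.79), mitochondrial share in the model (2.11) and DESeq2 (1.80). The third N-proteinase, Adamts3, was measured at 0.508 to 3.52 CPM and was not called at any day. None of the 7 ADAMTS-like proteins, which lack the protease domain, was called at days 7 and 14, and Adamtsl3 (0.86), named after its values were seen, was called higher at day 21.

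In the list of tolloid proteases, their enhancers and inhibitors, 11 of 12 were tested. Of these, 1 was called higher and 2 lower at day 7, 3 higher and 3 lower at day 14, and 5 higher and 3 lower at day 21. Lrp1, named after its values were seen, was called higher on each of these days. Pcolce2, an enhancer of C-propeptide removal, fell at all 3 days, with log2 fold changes of -1.20, -2.29 and -2.59 (adjusted p = 0.00879, 5.68e-05 and 7.21e-05, edgeR), the day 7 call being lost with mitochondrial share in the model (-1.02). It was at 287 to 337 CPM at day 0 and 29.7 to 64.1 CPM at day 21, with no overlap. Pcolce, the other enhancer, was at 125 to 143 CPM at day 0 and had log2 fold changes of 0.54, 0.31 and 0.16. At day 7 all 4 of its libraries lay above day 0 (adjusted p = 0.00322, edgeR), but the difference was below 1.5-fold and so was not called. At day 14 the membrane-anchored inhibitor Reck (-1.25) and the matrix protein Fbln1 (-1.003) were called lower, and the proprotein convertases Pcsk6 (0.87) and Furin (0.67), enzymes that mature such proteases, were called higher. Furin was named after its values were seen, and its call was lost without day 14 replicate 1 (0.51) or day 0 replicate 3. Within libraries over 3.5% mitochondrial share, a smaller set without day 14 replicate 1, Fbln1 (-0.80) and Furin (0.68) were not called. Tll1, a tolloid protease related to BMP1, was called at day 21 alone (0.66), a call lost without any of day 0 replicates 1, 2 and 3 or day 21 replicates 1 and 2, with values from 0.41 to 0.75 over the 7 libraries left out in turn. The Tll1 call was also lost with no filter (0.61) and with the 2 groups fitted alone (0.62). Timp3, the inhibitor of several ADAMTS proteases, was not called at any day, with log2 fold changes of -0.09, -0.07 and 0.34.

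Of the 9 tested procollagens, 6, 8 and 8 were called higher at days 7, 14 and 21 and none lower. At day 14 Col11a1 was at 6.19, Col5a3 at 3.09, Col1a1 at 2.87, Col5a2 at 2.82 and Col3a1 at 2.11 on the log2 scale. Day 14 replicate 1 raised these values: without it they were 4.52, 2.33, 2.08, 2.34 and 1.69, all still called. Within libraries over 3.5% mitochondrial share, a set also without day 14 replicate 1, Col11a1 was at 4.22 and Col1a1 at 2.23. Col11a1 was at 5.26 with limma voom and 5.41 with a replicate block. All of these were called. Of the 10 other BMP1 substrates tested, 6 were called higher at day 14 and 1 lower. The crosslinking enzyme Lox (1.95) and its relative Loxl1 (1.35) rose, and Ogn, a small leucine-rich proteoglycan, fell by 1.78. Without day 14 replicate 1 the values were 1.48 for Lox, 1.07 for Loxl1 and -1.73 for Ogn, all called. Of the 10 ADAMTS substrates tested, 8 were called higher at day 14 and 1 lower, with Fbn2 at 3.80, Fn1 at 3.33, Thbs2 at 3.18, Fbn1 at 2.49 and Vcan, the versican gene, at 1.23. Without day 14 replicate 1 Fbn2 was at 2.85, Fn1 at 2.68, Thbs2 at 2.54 and Fbn1 at 2.00, all called, while Vcan was at 0.62 and not called. The Vcan call was also lost without day 0 replicate 3 or day 0 replicate 4 and with the 2 groups fitted alone (1.22). At day 7 Vcan was at 1.83 and called, a call lost in 0 of 8 fits with 1 library left out. It was still called there with mitochondrial share in the model (1.16). At day 21 Vcan was at 1.40 and called, a call lost in 4 of 7 such fits. Within libraries over 3.5% mitochondrial share, Fbn2 was at 2.78 and Thbs2 at 2.47, both called.

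**Figure D5:**
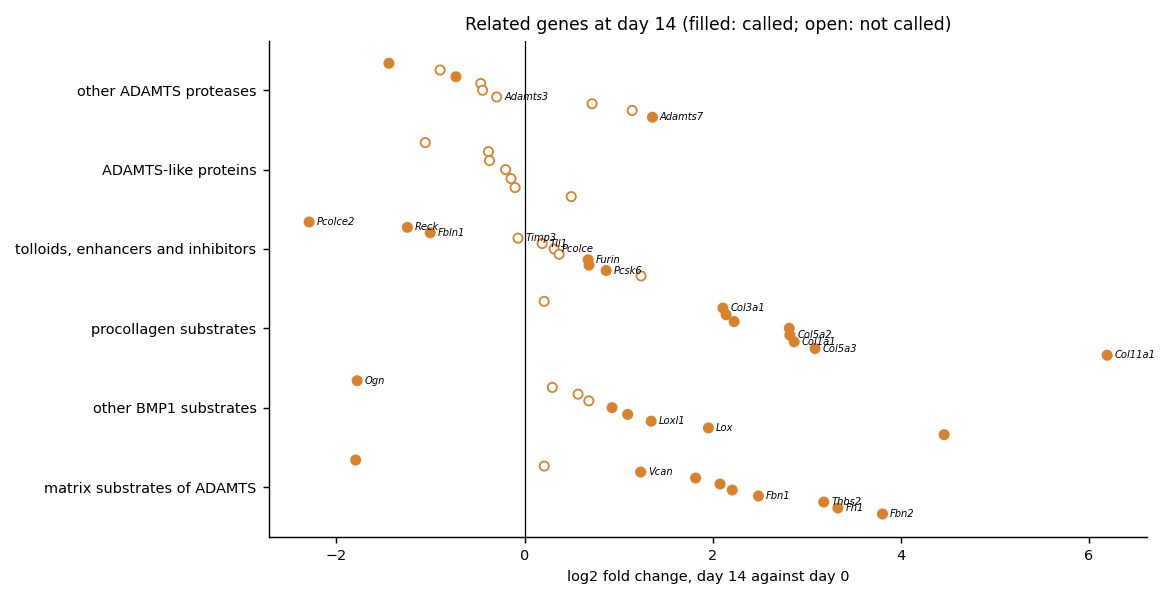
Log2 fold change at day 14 against day 0 (x axis) of 55 of the 56 tested related genes, grouped by list (y axis). Filled points are called, and labels mark some of the genes named in the text. Most procollagens lie to the right, with Col11a1 at 6.19, while Pcolce2 lies at -2.29.

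The genes whose levels ran closest to each member were found by the mean absolute difference of centred log2 CPM over the 15 libraries, among 14979 genes. This is a description, with no claim on function or control. Bmp1 was closest to Slc20a1 (0.128) and Slc36a1 (0.156), where the median over all genes was 0.545. Adamts2 was closest to Myo5a (0.157) and Col4a1 (0.164), Adamts14 to Mctp1 (0.167) and Nid2 (0.2), and Adamts12 to Inhba (0.412) and Fn1 (0.415). Adamts4 was closest to Timp1 (0.37) and Nxpe5 (0.396), and Adamts9 to Icam1 (0.197) and Trim16 (0.199). Adamts1 was closest to Neb (0.233) and Plk3 (0.239), Adamts5 to Ctif (0.22) and Zfp955a (0.22), and Adamts15 to Lrrc9 (0.256) and Prrg4 (0.295).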

How the data were processed

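The deposited values are raw counts per gene, made by the authors from polyA-selected whole-lung libraries (NEBNext Ultra) by alignment with HISAT2 2.1.0 to GRCm38, exclusion of multi-mapped reads and counting with HTSeq 0.6.0. The annotation release and strand setting are not given in the sources used here. Of 33340 genes, 33267 were matched to GENCODE M21, and the rest held 0.00889% of counts. All 15 libraries were fitted together in R 4.3.3 with edgeR 4.0.16 (TMM scaling, filterByExpr, quasi-likelihood test, Benjamini-Hochberg adjustment over 17457 genes), and the code was tested on simulated data. The authors' methods name DESeq2, which was an alternative here (1.42.0), with limma 3.58.1. CPM used TMM-scaled totals. Length was the union of exons. Totals of 15652008 to 18020661 set the precision for low genes. No library pair was a duplicate. All 10 members were named, with fixed related genes and up to 4 called genes per related list, taken by size at day 14 with no overlap with day 0. Some gene results are not reported here. The members and lists were chosen with earlier results of these data known.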

Additional observations from a re-analysis of the deposited data

Results flagged for a closer look

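In groups of 4 libraries, 1 library stood far from the others in 5 of the 41 groups examined, where chance gives about 1 in 20. These 5 are not independent, since 3 come from the same library and 1 rests on 2 counts. Day 14 replicate 1 did so for Adamts2 (314.1 CPM, others 163.2 to 175.0), Adamts14 (16.6 CPM, others 5.89 to 7.24) and Adamts12 (63.5 CPM, others 10.7 to 13.2). Day 7 replicate 3 held the Adamts16 counts of its day (0.110 CPM, others 0). Day 0 replicate 3 had 290.4 Adamts2 counts per 1000 of Col1a1, others 206.0 to 216.6.

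The change since day 0 differed between days by a direct test, in log2 units, for Adamts14 (1.36, day 21 over day 7), Adamts12 (1.63, day 21 over day 7) and Bmp1 (0.87, day 14 over day 7, and 0.98, day 21 over day 7).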

How the results depend on the processing

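Of 909 repeats of 54 member results under other settings, 852 kept direction and side of the threshold, 18 lost a call, 15 gained one with the same sign and 24 changed sign, 1 of them also gaining a call (Adamts1 at day 7 within libraries under 2.5% mitochondrial share). Adamts2, Adamts4 and Adamts12 were called against day 0 at all days in every setting run, and Bmp1 at days 14 and 21. At day 14 against day 7 (1 member called), 2 were called with no filter, with the 2 groups fitted alone and with DESeq2, and 0 with the mitochondrial share as covariate, with 1 to 2 when 1 library was left out. At day 21 against day 7 (3 called), 5 were called with no filter, DESeq2 and the covariate, and 1 to 3 when 1 library was left out. At day 21 against day 14 the range was 0 to 1, with 1 without day 14 replicate 1. Related genes called at day 7 went from 24 to 12 with the covariate. The cause was not tested in any of these.

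Over 21 same-numbered pairs of libraries the correlation of deviations was -0.244 to 0.397, over 0.1 in 8. Differently numbered pairs were not examined, so whether the replicate numbers pair the libraries was not tested. With a replicate block the members called were 4, 5 and 6 at days 7, 14 and 21, and the sign changed for Adamts1 at day 7 (0.030) and Adamts15 at day 21 against day 7 (0.13). These 2 also changed sign with limma voom (0.093 and 0.0035) and the mitochondrial covariate (0.33 and 0.35). Within libraries under 2.5% mitochondrial share, Adamts1 was at 0.78 and Adamts5 at -0.15 at day 7. Within those over 3.5%, Adamts14 was at -0.24 and Adamts5 at 0.17 at day 14.

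With 1 library left out, values that crossed 0 ranged as follows. Against day 0 at day 7, Adamts1 ran from -0.31 to 0.24, Adamts5 from -0.031 to 0.25 and Adamts14 from -0.24 to 0.010. At day 14, Adamts14 ran from -0.16 to 0.49 and Adamts5 from -0.30 to 0.00017. At day 14 against day 7, Adamts2 ran from -0.041 to 0.33, Adamts14 from -0.0053 to 0.63 and Adamts9 from -0.057 to 0.22. At day 21 against day 7, Adamts5 ran from -0.027 to 0.51 and Adamts15 from -0.15 to 0.14. At day 21 against day 14, Bmp1 ran from -0.080 to 0.23. None of these was called. Low counts limit Adamts16, and limit the day 0 levels of Adamts4 and Adamts12.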

Other observations

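Adamts1 and Adamts5 lie next to each other on the minus strand of chromosome 16, 53059 bases apart in GENCODE M21, with 0 genes of the count table between them. Adamts9 shares up to 1381 exonic bases with genes on the opposite strand, which had at most 199 counts in all libraries together.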
